A study of Mus musculus with 3 samples.

Results

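Macrophage, monocyte and neutrophil genes were followed in skin papillomas, benign epidermal tumours, of mice that differ in galectin-7, a lectin of stratified epithelia. The group holds 56 mouse symbols from a list of myeloid cell genes, which was chosen with earlier results of these data known. Of the 24028 gene identifiers in the count table, 55 carry one of them. Ly6g was not analysed here. Each of the 3 genotypes gave 1 RNA-seq library, made from 3 pooled tumours of C57BL/6 mice. Tg46 mice carry a transgene that expresses galectin-7 constitutively from the keratin 14 promoter, which is active in basal keratinocytes. Lgals7-/- mice lack galectin-7, and wild-type mice express it from its own gene. All animals received DMBA, a carcinogen that starts tumours, and then TPA, a promoter of tumour growth. The RNA came from whole tumours, so immune cells are a part of it. A count therefore cannot tell fewer myeloid cells from less of the transcript per cell.

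Monocytes leave the blood and become macrophages in tissues, where they engulf dead cells and debris with lysozyme, lysosomal enzymes and scavenger receptors. Neutrophils arrive early at sites of skin inflammation and carry proteases and peroxidase in granules. In mice CSF1 sustains macrophages through its receptor CSF1R, CSF3 drives neutrophil production through CSF3R, and the transcription factors PU.1 (Spi1) and C/EBP beta (Cebpb) switch on myeloid genes.

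The libraries were shallow, with 354499 counts in Tg46, 312600 in Lgals7-/- and 172011 in wild-type. Zero counts allow a level of up to 8.95 CPM (counts scaled to a common library size with TMM factors) in Tg46, 9.11 in Lgals7-/- and 17.4 in wild-type, the level of 3 counts. Intervals and these floors cover counting error only, since the reads carry no molecular identifiers and there was no replicate library. Lgals7 itself held 4 counts in Tg46, 2 in Lgals7-/- and 0 in wild-type, too few to check the genotype labels, so each library is taken here by its label alone. Of keratinocyte genes, which mark the tissue, all 10 were detected in every library, and their summed level was 2357 CPM in Tg46, 1908 in Lgals7-/- and 1129 in wild-type. These levels differed between the libraries, and their part in the myeloid results was not tested. Genes that every cell uses strongly were low as well. Of 12 such genes, chosen after their counts were seen, the median was 10.5 counts in Tg46, 13.5 in Lgals7-/- and 3.5 in wild-type, and Actb, the cytoskeletal actin, held 13, 13 and 3. Gapdh, a glycolytic enzyme, held 4, 5 and 0, and Krt14, the keratin of basal keratinocytes, 95, 81 and 20. The counts as deposited therefore do not rank genes as transcript abundance in skin would, the reason was not tested, and every value below is a deposited count or a ratio of such counts and not a measured RNA level. The sources used here do not say whether reads were counted by strand. Of the 55 myeloid genes, 6 have an exon that overlaps an exon of another gene on the opposite strand, namely Csf1r, Csf2, Fcgr2b, Il1b, Cebpb and Mpo, and their counts may include reads of the gene across.

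Together the 55 genes took 505 counts in Tg46, 655 in Lgals7-/- and 266 in wild-type, which is 0.142% (exact 95% binomial interval 0.130 to 0.155), 0.209% (0.194 to 0.226) and 0.155% (0.137 to 0.174) of each library. The summed level was 1.32-fold lower in Tg46 than in Lgals7-/- (exact 95% interval 1.17 to 1.49), and 1.29-fold higher in Lgals7-/- than in wild-type (1.12 to 1.50). Between Tg46 and wild-type it differed by less than counting error, with a ratio of 0.979 (0.842 to 1.14). By level, 12 of the 55 genes were highest in Tg46 (21.8%, against 31.9% of all 23082 genes with a count), 27 in Lgals7-/- (49.1% against 34.5%) and 16 in wild-type (29.1% against 33.6%). Genes listed at 0 numbered 3 in Tg46, 2 in Lgals7-/- and 12 in wild-type, the shallowest library.

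Receptor genes of smell and taste, which are known chiefly from sensory tissue, were taken as a measure of low levels. The 1490 chemosensory receptor genes with a gene model (olfactory, vomeronasal, taste and trace amine receptors) gave 2.37 CPM per kb of exon in Tg46, 2.56 in Lgals7-/- and 3.25 in wild-type when pooled. Summed over the whole list of 1492 genes they held 12824, 13853 and 17624 CPM, more than the 10 keratinocyte genes, but over far more genes. Per kb the 10 keratinocyte genes ranged from 7.47 to 161 CPM in Tg46, 3.11 to 140 in Lgals7-/- and 0.829 to 68.4 in wild-type. Pooled like the receptor genes, the myeloid genes gave 8.14, 10.8 and 8.32 CPM per kb, and the median of the 12 genes of every cell was 14.4, 13.5 and 8.46. The 95th percentile of the receptor genes, 10.4 CPM per kb in Tg46, 13.2 in Lgals7-/- and 20.1 in wild-type, was exceeded by 17, 20 and 8 of the 55 myeloid genes, and their median by 46, 51 and 42. The median myeloid gene stood at 7.28 CPM per kb in Tg46, 10.5 in Lgals7-/- and 5.795 in wild-type. Over all genes the median was 6.60, 6.78 and 5.69, so in Tg46 and wild-type the myeloid genes lay near the level of a typical gene. Per length, Cebpb led the group in Tg46 (45.6 CPM per kb), Lyz2 in Lgals7-/- (90.03) and Cd163 in wild-type (45.6), so the order of the genes differed between libraries. Lowest on average over the libraries were C1qc (0.515), Trem2 (1.59) and Tlr4 (1.94), which lay under the 2.46 CPM per kb median of the receptor genes. Whether counts at the receptor genes are expression or background was not tested.

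**Figure D1:**
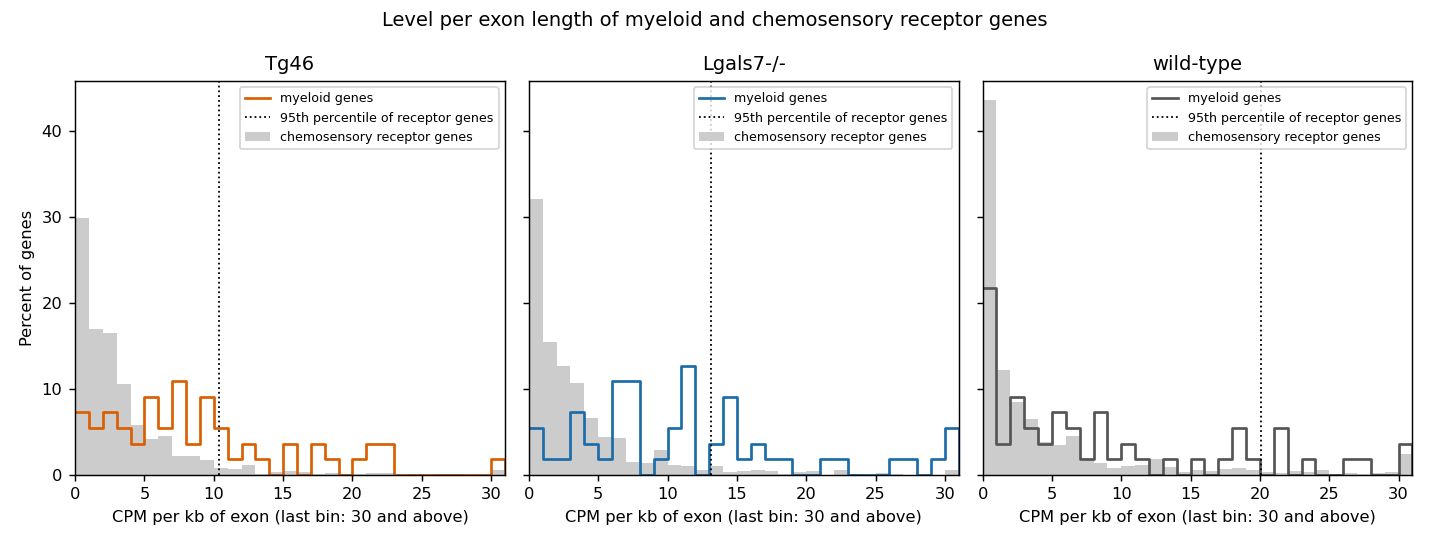
Percent of genes by level (CPM per kb of exon) for the 55 myeloid genes (coloured line) and the 1490 chemosensory receptor genes (grey bars), 1 panel per library with Tg46, Lgals7-/- and wild-type from left to right. The dotted line marks the receptor genes' 95th percentile, which 17, 20 and 8 myeloid genes exceeded.

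For the comparisons, 30 of the 55 genes had at least 10 counts in at least 1 library, among 12940 such genes in all. The other 25 held at most 9 counts in any library. The call required that the ratio, with 0.5 counts added to each library, be at least 2-fold in either direction and that the exact 95% interval of the count ratio leave out 1. Since 13 of the 30 reached 10 counts in a single library, the filter itself favours a call, and the counts below are a description of these libraries and not of the genotypes. The comparisons also share libraries, so each is given by its own values.

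In Tg46 against Lgals7-/-, 7 of the 30 myeloid genes were called lower, where 7.73% of all genes tested were, and 2 were called higher, where 8.43% of all genes were. The genes called lower were both lysozymes (Lyz1, Lyz2), the scavenger receptors Cd163, Msr1 and Marco, the efferocytosis receptor Mertk, and Sirpa, and those called higher were Cebpb and Clec7a. The median log2 ratio of the 30 genes was -0.42, beside -0.03 over all genes tested. The myeloid median depended on the filter, at -0.03 with a mean of at least 10 counts (19 genes), -0.10 with at least 20 counts in a library (11 genes), -0.17 with no filter and -0.26 in libraries thinned to equal totals by a single random draw. Over all genes the median was 0.02, 0.06, -0.03 and 0.01 under these settings. In Tg46 against wild-type, 4 were called higher (Csf3r, Fcgr3, Cebpb, Clec7a) beside 13.7% of all genes, and 3 were called lower (Lyz1, Cd163, Mertk) beside 13.9%, with a median of 0.18 beside 0.11. In Lgals7-/- against wild-type, 6 were called higher (Lyz2, Csf3r, Marco, Fcgr3, Itgb2, Aif1) beside 13.3% of all genes, and 0 were called lower beside 13.7%. The median was 0.74 beside 0.10 over all genes, or 0.37 beside -0.007 with a mean of at least 10 counts. As shares of the 30, the calls were 23.3% lower and 6.67% higher in Tg46 against Lgals7-/-, 10% lower and 13.3% higher in Tg46 against wild-type, and 20% higher in Lgals7-/- against wild-type. In libraries thinned to equal totals, where 16 myeloid genes passed the filter, 2 were called lower in Tg46 against Lgals7-/- beside 5.29% of all genes. With a mean of at least 10 counts required the median in Tg46 against wild-type was -0.25, beside 0.02 over all genes. The share called lower in Tg46 against Lgals7-/- at full depth was thus above the background share, while the calls of Tg46 against wild-type lay close to it.

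**Figure D2:**
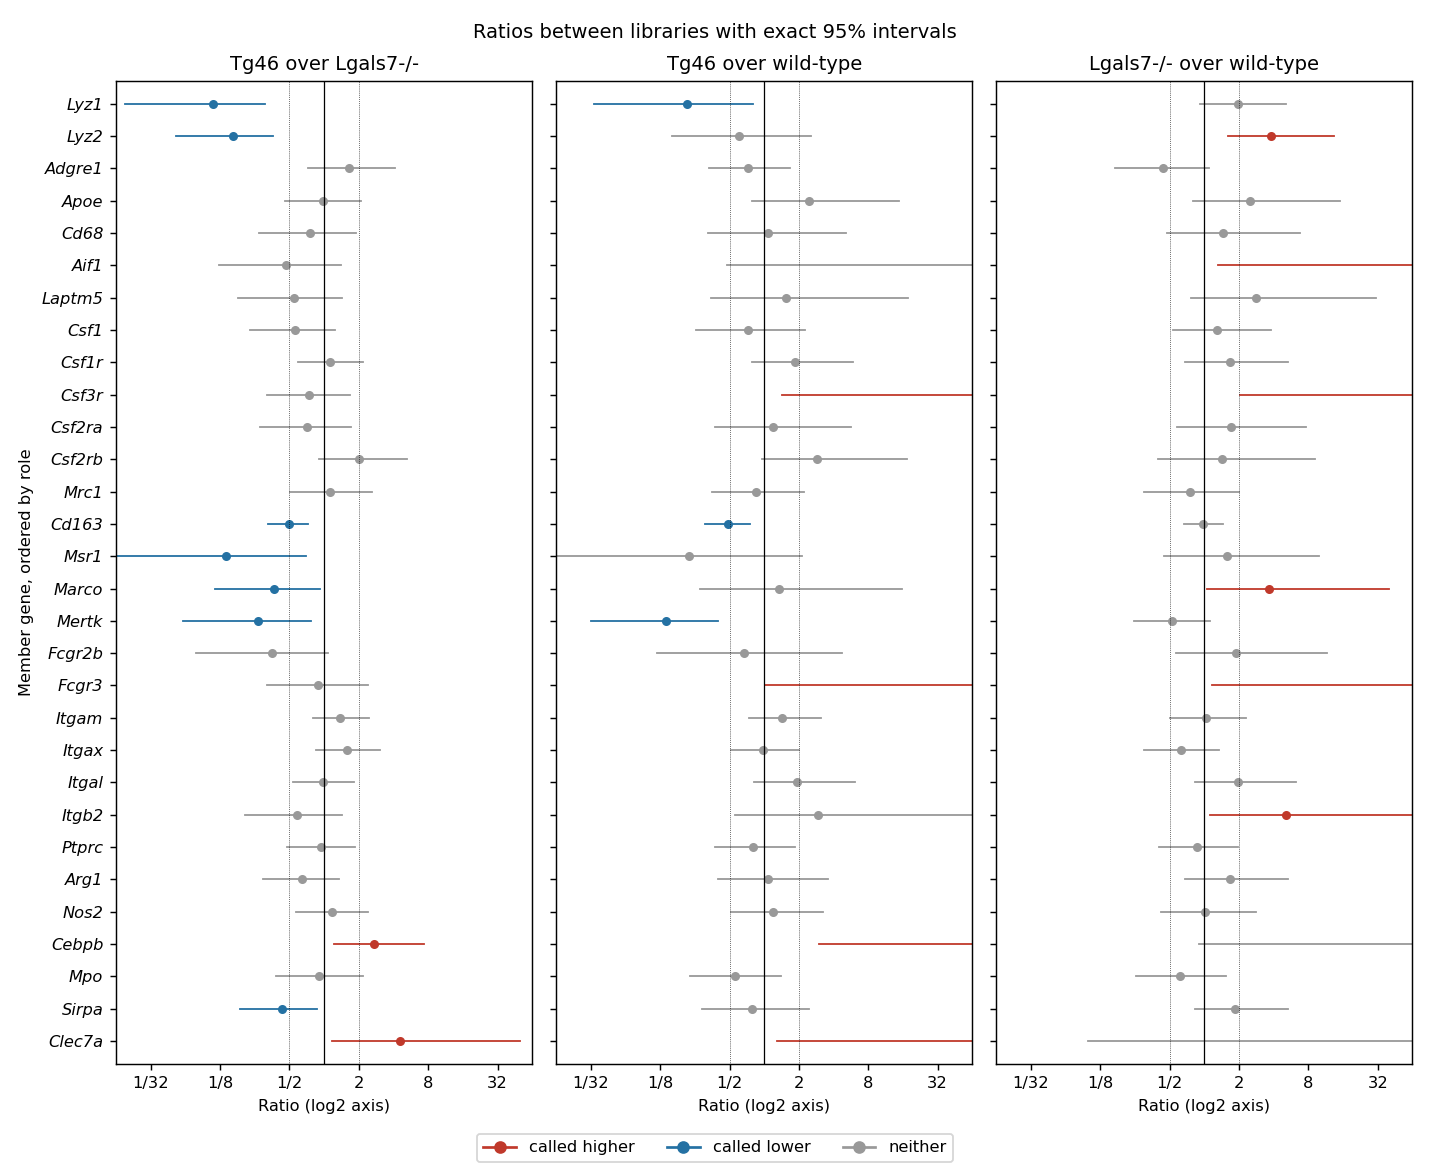
Ratios of the 30 tested myeloid genes in Tg46 over Lgals7-/-, Tg46 over wild-type and Lgals7-/- over wild-type, on a log2 axis, with exact 95% intervals as lines and ratios (0.5 counts added) as points; where a library held 0 counts there is no point, and intervals that run off the axis are cut at its edge. Blue marks the 7, 3 and 0 genes called lower and red the 2, 4 and 6 called higher.

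Lyz1 and Lyz2 are neighbouring genes for lysozymes, enzymes that cleave bacterial cell walls. They had 2 of the 3 lowest ratios of the tested myeloid genes in Tg46 against Lgals7-/-, with Msr1 between them. Lyz1 (mm10 chromosome 10, 117287797 to 117292868, minus strand) held 3 counts in Tg46, 31 in Lgals7-/- and 8 in wild-type, or 8.95, 94.2 and 46.3 CPM. It was 9.16-fold lower in Tg46 than in Lgals7-/- (3.28 to 53.8) and 4.71-fold lower in Tg46 than in wild-type (1.24 to 30.3). Lyz2 (chromosome 10, 117277331 to 117282321, minus strand), the form typical of macrophages and neutrophils in the mouse, held 6, 39 and 5 counts in Tg46, Lgals7-/- and wild-type. The Tg46 library lay 6.19-fold below Lgals7-/- at Lyz2 (2.78 to 19.1), and Lgals7-/- lay 3.77-fold above wild-type (1.61 to 13.3). At 17.9, 118 and 28.9 CPM for Lyz2, both genes were thus highest in Lgals7-/- and lowest in Tg46, but not every step of that order was beyond counting error. For Lyz2 the ratio of Tg46 to wild-type was 0.609 (0.157 to 2.56). For Lyz1 the ratio of Lgals7-/- to wild-type was 1.945 (0.915 to 5.12). The pair shares stretches of sequence. Of the 50-base words in the longest Lyz1 transcript, 16.1% also occur in Lyz2, and 15.4% of those of Lyz2 occur in Lyz1, so some reads could be counted at either gene. Their sum of 9 counts in Tg46 against 70 in Lgals7-/- and 13 in wild-type does not depend on that split, and was 7.92-fold lower in Tg46 than in Lgals7-/- (3.94 to 18.0).

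The 250 bases before the RefSeq start of each lysozyme gene (GRCm38.p6) are printed here since this pair held the most counts among the genes that differed by over 4-fold between Tg46 and Lgals7-/-. Lyz1 lies at chr10:117292869-117293118 and Lyz2 at chr10:117282273-117282522, both on the minus strand and written 5′ to 3′. Capitals mark AGGAAG, a core bound by ETS factors such as PU.1, and TTGCNNAA, a form of the C/EBP element, on either strand. No match overlapped another.
Lyz1: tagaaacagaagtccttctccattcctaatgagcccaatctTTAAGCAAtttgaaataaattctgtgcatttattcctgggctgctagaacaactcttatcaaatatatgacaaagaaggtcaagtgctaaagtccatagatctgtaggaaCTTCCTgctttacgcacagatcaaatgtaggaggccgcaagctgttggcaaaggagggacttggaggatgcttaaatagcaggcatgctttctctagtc
Lyz2: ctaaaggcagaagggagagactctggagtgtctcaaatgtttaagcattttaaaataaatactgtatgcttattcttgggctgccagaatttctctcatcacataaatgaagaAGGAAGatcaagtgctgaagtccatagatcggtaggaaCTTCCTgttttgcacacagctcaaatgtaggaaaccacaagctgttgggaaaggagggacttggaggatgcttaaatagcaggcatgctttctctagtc
Over 252 aligned columns the promoters were 79.4% identical. AGGAAG occurred 1 time before Lyz1, 99 bases from the start, and 2 times before Lyz2, 99 and 137 bases from it. TTGCNNAA occurred 1 time before Lyz1 and was not in this window of Lyz2. Of all 27025 promoter windows of that length, 29.2% hold AGGAAG and 9.55% hold TTGCNNAA, and of the 40 myeloid genes with an entry 62.5% and 20% do. A match is a run of letters and not evidence of binding.

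The other genes of lysosomes and macrophage identity gave no call between Tg46 and Lgals7-/-. Apoe, a lipid carrier that macrophages secrete, held 16, 16 and 3 counts in Tg46, Lgals7-/- and wild-type, and Cd68, a lysosomal glycoprotein of macrophages, held 9, 12 and 4. Adgre1 encodes F4/80, the classical macrophage surface marker, and held 17, 10 and 12 counts. None of these 3 genes was called in any comparison. Aif1, a calcium-binding protein of activated macrophages, held 5, 11 and 0 counts and was at least 1.93-fold higher in Lgals7-/- than in wild-type against a floor of 3 counts (exact interval from 1.32). A floor bound of this kind takes the other library's count as free of error, so the exact interval, given beside each, reaches lower. The bound can also lie under 2-fold although the ratio with 0.5 counts added passed it. With 5 counts added the call of Aif1 ended, at 1.68. Laptm5, a lysosomal membrane protein of leukocytes, had 7, 13 and 2 counts with no call, and Ctss, the lysosomal protease cathepsin S, was under the filter with 1, 5 and 1. Of these 8 genes, 7 had their highest level in Lgals7-/-, and Adgre1 had its highest level in wild-type. Their summed level was 2.18-fold lower in Tg46 than in Lgals7-/- (1.61 to 2.98). Without Lyz1 and Lyz2 it was 1.24-fold lower (0.855 to 1.81), within counting error.

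**Figure D3:**
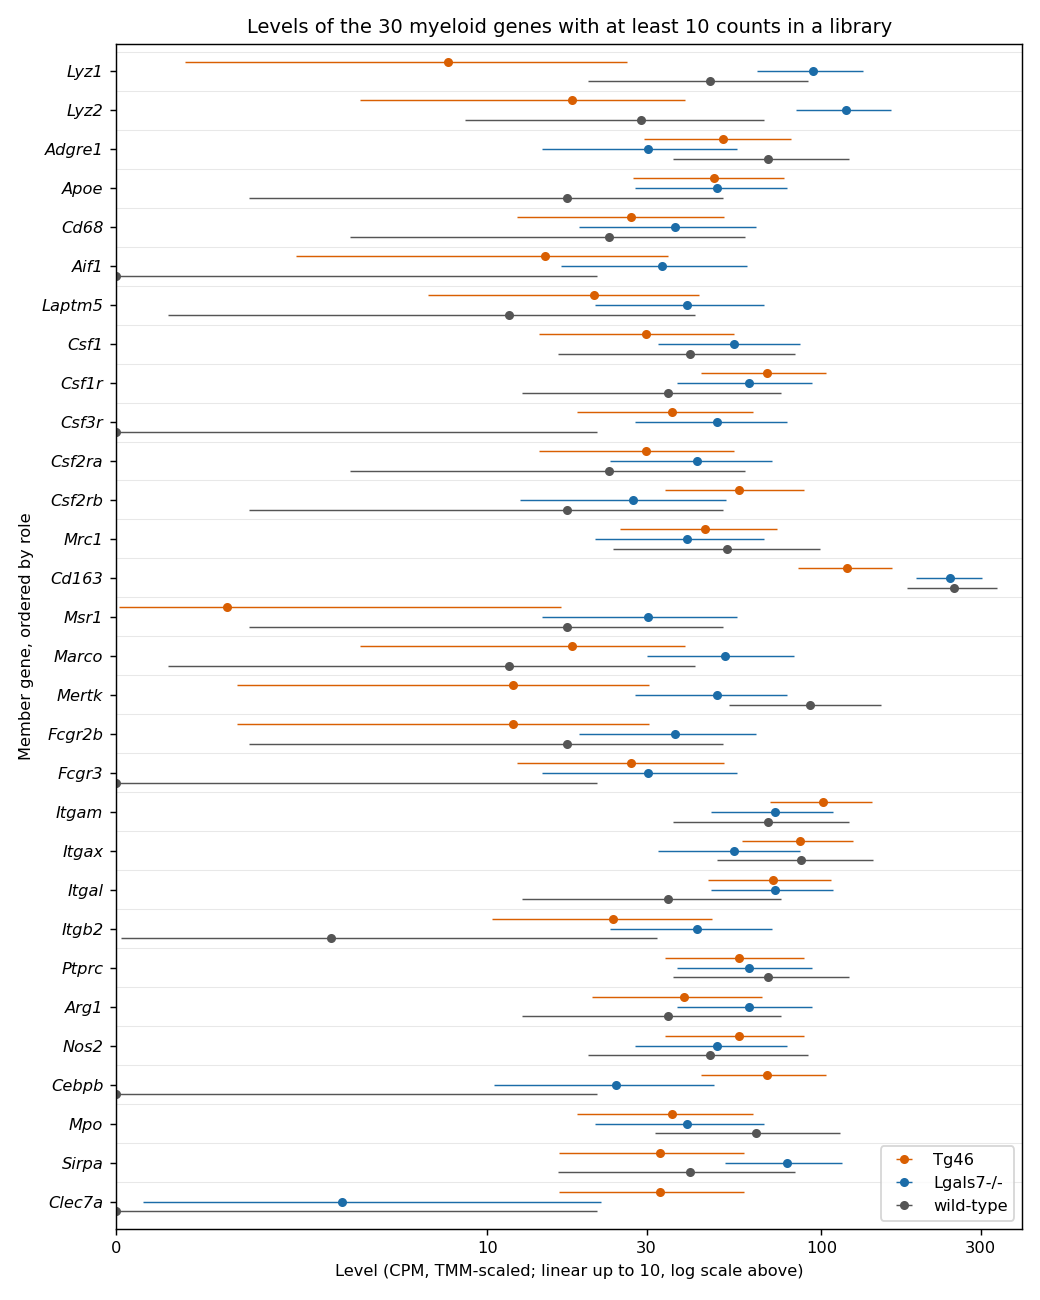
Level in CPM of the 30 tested myeloid genes, ordered by role, in Tg46 (orange, upper), Lgals7-/- (blue, middle) and wild-type (grey, lower), on an axis that is linear up to 10 CPM and logarithmic above it. Points are single libraries and lines the exact 95% Poisson intervals of the counts. Lyz1 shows 8.95, 94.2 and 46.3 CPM, and Cd163 has the highest level in each library, at 119, 243 and 249 CPM.

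Scavenger and efferocytosis receptors, which take up modified lipoproteins, haemoglobin and dead cells, were lower in Tg46 than in Lgals7-/- at 4 of 5 genes. Cd163, the haemoglobin scavenger receptor (chromosome 6, 124304656 to 124330527, plus strand), had the most counts of all 55 genes, with 40 in Tg46, 80 in Lgals7-/- and 43 in wild-type. At 119 CPM, Tg46 lay 2.02-fold below the 243 CPM of Lgals7-/- (1.38 to 3.06) and 2.08-fold below the 249 CPM of wild-type (1.32 to 3.29). The Lgals7-/- and wild-type libraries differed by less than counting error at Cd163 (ratio 0.971, interval 0.666 to 1.45). Mertk, a receptor tyrosine kinase for dead cells (chromosome 2, 128698956 to 128802894, plus strand), held 4 counts in Tg46, 16 in Lgals7-/- and 16 in wild-type. Its level in Tg46 was 3.73-fold lower than in Lgals7-/- (1.31 to 16.7) and 7.11-fold lower than in wild-type (2.50 to 31.9). Marco, a receptor for bacteria and particles, held 6, 17 and 2 counts, 2.74-fold lower in Tg46 than in Lgals7-/- (1.09 to 8.94) and 3.67-fold higher in Lgals7-/- than in wild-type (1.06 to 39.8). Msr1, the class A scavenger receptor, held 1, 10 and 3 counts, 7.13-fold lower in Tg46 than in Lgals7-/- (1.45 to 442). Mrc1, the mannose receptor CD206, held 15, 13 and 9 counts and was called in no comparison. As a group these 5 genes summed to 197 CPM in Tg46, 413 in Lgals7-/- and 422 in wild-type, 2.10-fold lower in Tg46 than in Lgals7-/- (1.55 to 2.86) and 2.14-fold lower than in wild-type (1.52 to 3.04). Without Cd163 the sums were 26, 56 and 30 counts, and Tg46 lay 2.19-fold below Lgals7-/- (1.35 to 3.64). The calls of Cd163 ended with upper-quartile factors, at ratios of 0.503 against Lgals7-/- and 0.567 against wild-type, and in thinned libraries, and those of Msr1 and Mertk against Lgals7-/- ended in libraries thinned to equal totals, at ratios of 0.159 and 0.328. With 5 counts added the call of Cd163 against Lgals7-/- ended as well, at 0.52. The call of Marco in Lgals7-/- against wild-type ended with 5 counts added, at 1.65, and in thinned libraries (interval from 0.889).

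The Ly6c genes also had their highest level in Lgals7-/-. Ly6c1 and Ly6c2, neighbouring genes for the surface antigen that marks inflammatory monocytes, held 0 and 0 counts in Tg46, 8 and 7 in Lgals7-/-, and 0 and 1 in wild-type. Neither reached the filter of 10 counts, so neither was called. Their sum of 0 counts in Tg46 against 15 in Lgals7-/- makes Tg46 at least 5.09-fold lower against the floor (exact interval from 3.65-fold). Lgals7-/- lay 7.87-fold above wild-type (1.21 to 331). The pair also shares sequence, with 31.7% of the 50-base words of the longest Ly6c1 transcript found in Ly6c2. Ly6c1 is also made by endothelial cells, whose 6 marker genes summed to 307 CPM in Tg46, 346 in Lgals7-/- and 376 in wild-type, and their part in the result was not tested.
Ly6c1: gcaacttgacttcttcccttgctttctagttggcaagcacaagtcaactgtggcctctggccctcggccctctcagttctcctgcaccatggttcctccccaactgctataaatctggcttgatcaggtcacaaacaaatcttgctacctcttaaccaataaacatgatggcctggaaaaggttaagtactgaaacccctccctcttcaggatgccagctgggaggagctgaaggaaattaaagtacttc
Ly6c2: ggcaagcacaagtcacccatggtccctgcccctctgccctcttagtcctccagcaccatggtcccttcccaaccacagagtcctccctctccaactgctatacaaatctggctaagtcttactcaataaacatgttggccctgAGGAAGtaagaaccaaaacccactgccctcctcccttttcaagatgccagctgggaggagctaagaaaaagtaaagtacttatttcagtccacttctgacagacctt
These are the 250 bases before the first of the RefSeq starts listed for each gene, at chr15:75048838-75049087 and chr15:75111972-75112221 (GRCm38.p6, minus strand, 5′ to 3′), shown for comparison with the lysozyme pair. Over 284 aligned columns they were 57.7% identical, AGGAAG (capitals) occurred in 1 place before Ly6c2, 107 bases from the start, and TTGCNNAA was in neither window.

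Cebpb and Clec7a went the other way. Cebpb encodes C/EBP beta, a transcription factor of macrophage activation that keratinocytes also make, and held 23 counts in Tg46, 8 in Lgals7-/- and 0 in wild-type. Its level in Tg46 (68.6 CPM) was 2.72-fold higher than in Lgals7-/- (24.3 CPM, interval of the ratio 1.22 to 7.30) and at least 3.95-fold higher than in wild-type against the floor (exact interval from 2.96). Its exon overlaps Tmem189 on the opposite strand, and in libraries thinned to equal totals the ratio to Lgals7-/- was 1.29 with no call. Clec7a, the beta-glucan receptor dectin-1, held 11, 2 and 0 counts, 4.52-fold higher in Tg46 than in Lgals7-/- (1.18 to 50.2) and at least 1.89-fold higher than in wild-type against the floor (exact interval from 1.29). Thinned libraries left the ratio to Lgals7-/- at 4.08 with no call, and the call against wild-type also ended there (interval from 0.974) and with 5 counts added (1.65). Spi1, which encodes PU.1, was under the filter with 4, 7 and 0 counts.

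Among the other pattern recognition genes Sirpa alone was called. It encodes the receptor for the do-not-eat-me signal CD47 and held 11 counts in Tg46, 26 in Lgals7-/- and 7 in wild-type. Tg46 lay 2.35-fold below Lgals7-/- at Sirpa (1.15 to 5.40), and thinned libraries put the ratio at 0.730 with no call. With 5 counts added it was 0.507, also with no call. The other 8 genes were under the filter. Tlr2, a receptor for bacterial lipoproteins, held 4, 7 and 9 counts in Tg46, Lgals7-/- and wild-type, and Tlr4 and Cd14, the endotoxin receptor and its co-receptor, held 2 or 3 counts in each library. Trem1, which amplifies neutrophil and monocyte activation, had 9, 6 and 3 counts. Trem2, a lipid receptor of macrophages, and Tyrobp, the adaptor through which TREM receptors signal, stayed between 1 and 4 counts. Clec4d and Clec4e, paired C-type lectins for mycobacterial lipids, held 3 and 7 counts in Tg46, 4 and 6 in Lgals7-/-, and 0 and 1 in wild-type. The 10 genes of this group summed to 170 CPM in Tg46, 182 in Lgals7-/- and 179 in wild-type, with no pair of libraries apart by more than counting error.

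Of the colony-stimulating factors, Csf1 was the one tested, with 10 counts in Tg46, 18 in Lgals7-/- and 7 in wild-type and no call. Csf2 and Csf3, which act on granulocytes and macrophages, held 6 and 1 counts in Tg46, 4 and 3 in Lgals7-/- and 0 and 0 in wild-type. The receptors were better covered. Csf3r, the receptor for the neutrophil growth factor CSF3, held 12 counts in Tg46, 16 in Lgals7-/- and 0 in wild-type, at least 2.06-fold higher against the floor in Tg46 (exact interval from 1.43) and at least 2.80-fold in Lgals7-/- (from 2.02) than in wild-type. With 5 counts added the Csf3r call in Tg46 against wild-type ended, at 1.75. Csf1r, the macrophage growth factor receptor, held 23, 20 and 6 counts, and Csf2ra, the alpha chain for CSF2, held 10, 14 and 4, with no calls. Csf2rb, the shared beta chain of the CSF2, IL-3 and IL-5 receptors, held 19, 9 and 3 counts and was likewise not called, with 18.4% of its 50-base words shared with Csf2rb2. Summed over the 4 receptors, the level was 191 CPM in Tg46, 179 in Lgals7-/- and 75.2 in wild-type, 2.54-fold higher in Tg46 (1.38 to 5.02) and 2.38-fold higher in Lgals7-/- (1.29 to 4.74) than in wild-type. The summed receptor level thus set wild-type, with 13 counts over the 4 genes, apart from the other libraries, and Csf3r alone was called. Tg46 and Lgals7-/- had a ratio of 1.06 (0.736 to 1.54). Keratinocyte genes were also lowest in wild-type, at 2357 CPM in Tg46, 1908 in Lgals7-/- and 1129 in wild-type. So were the 12 genes of every cell, with sums of 806, 738 and 503.5 CPM. Endothelial genes were not, at 307, 346 and 376 CPM.

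**Figure D4:**
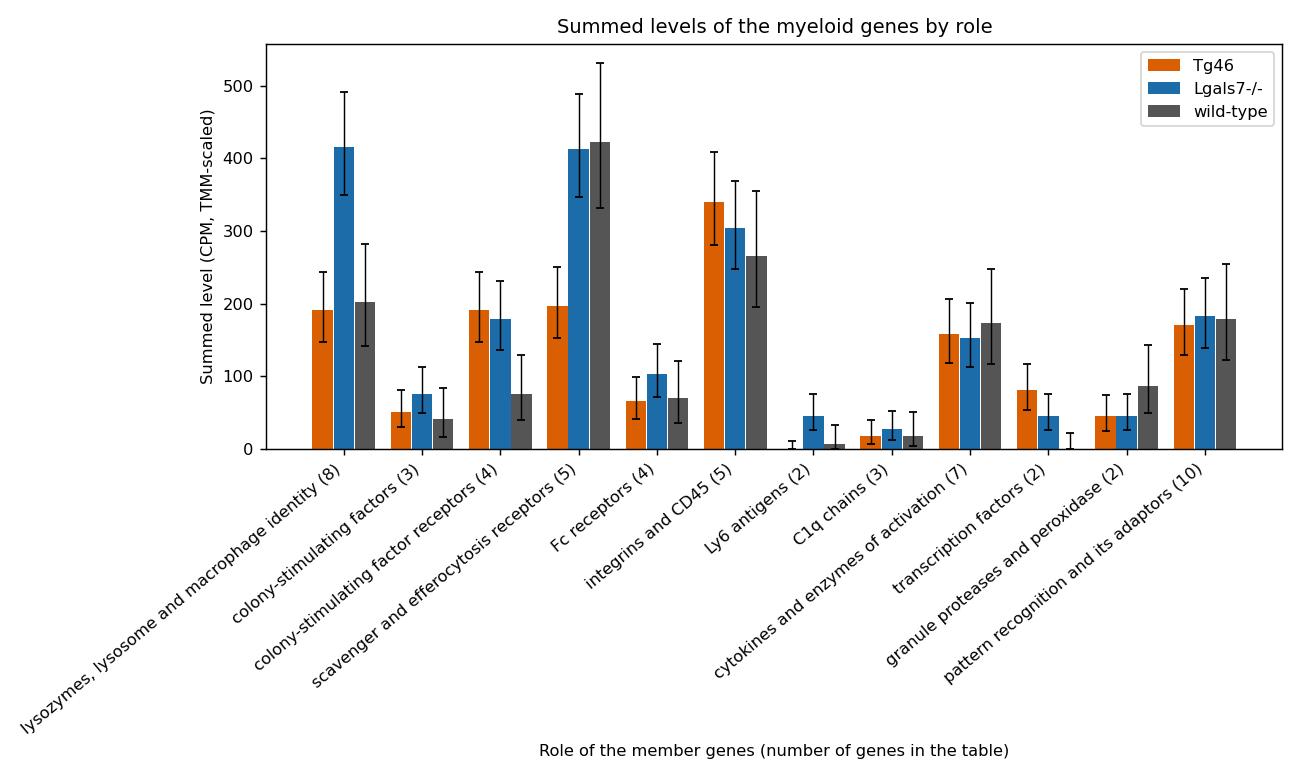
Summed level (CPM) of the myeloid genes in each role, with the number of genes in brackets, in Tg46 (orange), Lgals7-/- (blue) and wild-type (grey); error bars are exact 95% Poisson intervals of the summed counts. The scavenger receptors stood at 197, 413 and 422 CPM and the colony-stimulating factor receptors at 191, 179 and 75.2 CPM.

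Integrins and CD45, which all leukocytes carry in some form, gave 1 call, and none between Tg46 and Lgals7-/-. Itgam, the CD11b chain of monocytes and neutrophils, held 34 counts in Tg46, 24 in Lgals7-/- and 12 in wild-type, and Itgax, the CD11c chain, held 29, 18 and 15. Itgal, the LFA-1 alpha chain, held 24, 24 and 6, and Ptprc, which encodes CD45, held 19, 20 and 12. The call was Itgb2, the beta chain shared by these integrins, with 8, 14 and 1 counts and a level 5.07-fold higher in Lgals7-/- than in wild-type (1.12 to 311). That call ended in thinned libraries and with 5 counts added, at 1.66. The 5 genes summed to 340 CPM in Tg46, 304 in Lgals7-/- and 266 in wild-type, and Tg46 over Lgals7-/- had a ratio of 1.12 (0.849 to 1.48). At Itgam 72.4% of 50-base words also belong to Gm49368, a gene model on the same strand.

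Fc receptors bind antibody-coated targets. Fcgr3, the activating low-affinity receptor, held 9 counts in Tg46, 10 in Lgals7-/- and 0 in wild-type, at least 1.55-fold higher against the floor in Tg46 (exact interval from 1.02) and at least 1.75-fold in Lgals7-/- (from 1.18) than in wild-type. With DESeq2 size factors or total counts, and in thinned libraries, the interval for Tg46 over wild-type took in 1. Both calls of Fcgr3 ended with 5 counts added, at 1.44 in Tg46 and 1.575 in Lgals7-/-. Fcgr2b, the inhibitory receptor, held 4, 12 and 3 counts with no call, and Fcgr1 and Fcgr4, the receptors of high and intermediate affinity, held 3 to 6 counts in each library. Fcgr2b and Fcgr3 share sequence (12.8% of the 50-base words of Fcgr3).

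C1q, the complement subunit that resident macrophages secrete, was near the floor. C1qa held 2, 5 and 2 counts in Tg46, Lgals7-/- and wild-type, C1qb 3, 4 and 1, and C1qc 1, 0 and 0. The protein holds its chains in equal number, and their sum of 6, 9 and 3 counts did not separate the libraries.

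Among genes of activation, Arg1 and Nos2 were tested. Arg1, the arginase of alternatively activated macrophages, held 13, 20 and 6 counts in Tg46, Lgals7-/- and wild-type, and Nos2, the inducible nitric oxide synthase, held 19, 16 and 8. Neither enzyme was called. The cytokines lay under the filter. Il1b held 4, 4 and 3 counts, Tnf 4, 4 and 0, and Il10 4, 2 and 1. Il6, an inflammatory cytokine, was lowest in Tg46 with 0 counts, against 4 in Lgals7-/- and 8 in wild-type, and its level in Tg46 was at least 5.17-fold lower than in wild-type against the floor (exact interval from 3.31). In Lgals7-/- the Il6 level was 3.60-fold lower than in wild-type (1.02 to 17.3). Ptgs2, the prostaglandin synthase COX-2, was also under the filter, with 9, 0 and 4 counts. Against the floor Ptgs2 was at least 2.95-fold higher in Tg46 than in Lgals7-/- (exact interval from 1.94). It was at least 2.54-fold lower in Lgals7-/- than in wild-type (from 1.26). The genes of neutrophil granules showed no call. Mpo, myeloperoxidase, held 12, 13 and 11 counts, and Elane, neutrophil elastase, held 3, 2 and 4.

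Of 50 other myeloid genes, taken from a list of textbook markers that are not in the group above, 24 were tested. In Tg46 against Lgals7-/-, 3 were called higher and 4 lower, where 8.43% and 7.73% of all genes were, with a median log2 ratio of 0.07. Ngp, a neutrophil granule protein, had 5, 18 and 3 counts in Tg46, Lgals7-/- and wild-type, which made it 3.42-fold (1.31 to 12.6) lower in Tg46 than in Lgals7-/-. Lcp1, an actin-bundling protein of leukocytes, held 24, 7 and 10 counts and Cd300a, an inhibitory receptor, 18, 6 and 2, and these were 3.21-fold (1.41 to 9.26) and 2.79-fold (1.12 to 9.07) higher. Against wild-type, 5 were called higher and 3 lower in Tg46, and 3 higher and 2 lower in Lgals7-/-, beside 13.3% to 13.9% of all genes in each direction. Chil3, a chitinase-like protein of activated macrophages, held 2, 2 and 12 counts and was 9.70-fold (2.59 to 107) lower in Tg46 and 9.53-fold (2.54 to 105) lower in Lgals7-/- than in wild-type. Siglece, Cd33 and Ncf1 held 15, 12 and 12 counts in Tg46, 16, 11 and 11 in Lgals7-/- and 1, 0 and 0 in wild-type, all called higher than wild-type in both. S100a8 and S100a9, abundant neutrophil transcripts, held 0 and 2 counts in Tg46, 4 and 6 in Lgals7-/- and 0 and 2 in wild-type. The list's summed level was 2077 CPM in Tg46, 1574 in Lgals7-/- and 1487 in wild-type, but Irf5, whose exons overlap Tnpo3 across the strands, alone gave 264, 126 and 53 of its 696, 518 and 257 counts.

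For markers of other immune cells the summed levels of Tg46 and Lgals7-/- differed by less than counting error. Lymphocyte genes (19) summed to 409 CPM in Tg46, 395 in Lgals7-/- and 370 in wild-type, and mast cell genes (8) to 215, 207 and 145. The ratio of Tg46 to Lgals7-/- was 1.03 (0.808 to 1.33) for lymphocyte genes and 1.04 (0.736 to 1.47) for mast cell genes. Dendritic and Langerhans cell genes (14) summed to 388, 422 and 255 CPM, with a ratio of 0.919 (0.718 to 1.17) for Tg46 over Lgals7-/-. They were 1.52-fold higher in Tg46 (1.07 to 2.20) and 1.66-fold higher in Lgals7-/- (1.17 to 2.38) than in wild-type. Within that list Cd207, langerin, held 2 counts in Tg46, 11 in Lgals7-/- and 7 in wild-type and was called lower in Tg46 against both. H2-Ab1 and Ccr7 went the other way, with 13 and 11 counts in Tg46, 3 and 2 in Lgals7-/- and 2 and 1 in wild-type. They were 3.79-fold (1.17 to 23.3) and 4.52-fold (1.18 to 50.2) higher in Tg46 than in Lgals7-/-. Of the 11 genes tested, 2 were thus called higher and 1 lower in Tg46 against Lgals7-/-, where 8.43% and 7.73% of all genes were. Clec9a, a receptor of cross-presenting dendritic cells, held 28, 19 and 1 counts and was called higher than wild-type in both. Whether the difference between the myeloid genes and these lists exceeds variation between tumours cannot be tested with 1 library per genotype.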

How the data were processed

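RNA was extracted from 3 pooled papillomas per genotype and sequenced as 1 library each, per the labels' protocols. The authors deposited whole-number counts of reads for the 3 libraries, by Entrez identifier. The build in the submitters' processing notes is mm10, while the aligner, the counting tool and any strand setting are not stated there. A RefSeq symbol was found for 23968 of 24028 identifiers, and 23697 matched a GENCODE vM21 gene model (GRCm38), which gave positions, exon lengths and overlaps. Library sizes took TMM factors of edgeR 4.0.16 (0.945 in Tg46, 1.05 in Lgals7-/-, 1.00 in wild-type) from genes with at least 10 counts in a library, in R 4.3.3. With 1 library per genotype no test of genotype can be fitted, and no p-value is given. Ratios have 0.5 counts added, except sums, and exact Clopper-Pearson intervals, and a library at 0 gives a bound against 3 counts. Shared words of 50 bases were counted in GENCODE transcripts on both strands, and promoters are from RefSeq. The motifs were picked after the sequences were seen. The members and lists were chosen with earlier results of these data known. Members with 10 counts are given by value, called ones with their ratio, and of each other list up to 4 called genes with the largest ratios could be named. Among the alternatives were other filters, upper-quartile factors, total counts, DESeq2 1.42.0 size factors, 5 added counts, other call rules, thinning, and leaving out members. Thinning was a single random draw, so thinned ratios and the calls lost there could differ in another draw. Scripts ran under pandas 2.3.3, scipy 1.17.1, numpy 2.4.6 and Python 3.11.15.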

Additional observations from a re-analysis of the deposited data

How the results depend on the processing

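No paired analysis was possible because a genotype is a single library here. Of 22 called ratios of single genes, 8 were called under all 5 alternatives run for them (Lyz1 and Lyz2 in Tg46 over Lgals7-/-, Lyz1, Mertk and Cebpb in Tg46 over wild-type, Lyz2 and Csf3r in Lgals7-/- over wild-type, and Marco in Tg46 over Lgals7-/-), 14 lost the call under at least 1, and 0 of 110 recomputed values changed direction. For the single genes a change of direction was unlikely from the start. Their ratios were picked at 2-fold or more, and the alternatives reuse the same counts. Of 123 recomputed counts, medians and sums, 25 moved and 3 changed sign, and in these the cause was not tested unless fewer genes or counts were left. Counts of calls are given first for Lgals7-/- against wild-type, then for Tg46 against wild-type, and last for Tg46 against Lgals7-/-. Higher calls were 1, 1 and 1 with at least 20 counts in a library (11 genes; 15.3%, 17.7% and 11.1% of all genes), 1, 1 and 1 with a mean of at least 10 counts (19 genes; 11.9%, 13.7% and 8.14%), and 2, 0 and 0 after thinning to equal totals (16 genes; 12.2%, 11.8% and 7.15%). With 5 counts added the first 2 were 2 and 1 (4.51% and 5.09%), and by fold alone 10 and 8 (25.3% and 25.6%). The last was 1 without opposite-strand exons (6.87%) and 1 at a 4-fold threshold (2.51%). Lower calls were 2 and 5 in the first 2 comparisons without a filter (10.9% and 10.8%), 1 in the first by fold alone (18.6%), and in the last 4 with at least 20 counts (7.84%), 2 when thinned (5.29%) and 3 at 4-fold (2.39%). The median of the myeloid genes in Tg46 over wild-type changed sign, to -0.027 with at least 20 counts, -0.25 with a mean of at least 10 counts and -0.23 with 5 counts added. Over all genes the median was 0.19, 0.02 and -0.22 under these settings. With 5 counts added the myeloid median thus lay close to that of all genes. In Lgals7-/- over wild-type the myeloid median was 0.15 with 5 counts added, 0.25 when thinned and 0.37 with a mean of at least 10 counts. Over all genes it was -0.21, -0.11 and -0.007. In Tg46 over Lgals7-/- the myeloid median was -0.03 with a mean of at least 10 counts, beside 0.02 over all genes. Upper-quartile factors shifted the median of all genes against wild-type to 0.31 in Lgals7-/- and 0.35 in Tg46, and gave summed ratios of 1.499 and 1.156, and total counts alone shifted it to -0.18 in Tg46 over Lgals7-/-. Depth limits every value: 25 of 55 genes stayed under 10 counts. Wild-type at 0 bounds a level only to 17.4 CPM by the floor, or 21.35 CPM by the exact interval.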
